A study of Mus musculus with 12 samples.

Results

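The genes described here encode core proteins of the splicing machinery and the abundant RNA-binding proteins that act beside it. They are all genes of the array whose only symbol starts with Srsf, Hnrnp, Snrp, Sf3a or Sf3b, 47 of the 18193 genes measured. They fell into 10 Srsf, 19 Hnrnp, 9 Snrp, 3 Sf3a and 6 Sf3b genes and were covered by 139 probe sets. Each gene was represented by the probe set with the highest mean over the 12 arrays, chosen without regard to how it changed. Another 16 probe sets that list such a symbol beside other genes were not used.

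Splicing removes introns from a transcript inside the spliceosome, a machine built from small nuclear ribonucleoproteins (snRNPs), each a small RNA carried by proteins. The Snrp genes here encode members of the ring of Sm proteins that the snRNPs share and proteins of the U1 and U2 particles. The Sf3a and Sf3b genes encode the subunits of the U2 particle that recognise the branch point of an intron. Srsf genes encode serine- and arginine-rich (SR) proteins that bind exons and promote their inclusion, while heterogeneous nuclear ribonucleoproteins (hnRNPs, Hnrnp genes) package transcripts and often oppose SR proteins. In T cells, activation is known to change the splicing of many transcripts, with the phosphatase CD45 as the classic example.

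The samples were lymph node cell suspensions from mice of the P14-TCR strain, whose transgenic T cell receptor recognises the viral peptide gp33-41. There were 4 groups of 3 arrays: PKD2-null cells with peptide, PKD2-null cells without peptide, wild-type cells with peptide, and wild-type cells without peptide. Every suspension was cultured for 4 hours, with the peptide at 62.5 ng/ml where it was added. PKD2 is protein kinase D2, a serine/threonine kinase activated downstream of the T cell receptor, encoded by Prkd2, and all groups including the wild type carry the P14 receptor. Each genotype was represented by 3 mice, and the cells of each mouse were measured with and without peptide. The suspensions were not sorted, so the values are those of a mixture of lymph node cells. In such bulk samples, fewer cells of a type and less RNA per cell cannot be told apart. The labels give no age and do not say how the null allele was made. Values are deposited log2 signals, a difference of 1 on this scale being a doubling, and a level on this scale is compared only within a probe set.

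The targeted gene behaved as its labels say. Prkd2 had a log2 signal of 5.6, 5.47 and 5.36 in PKD2-null cells with peptide, against 8.16, 8.3 and 8.52 in wild-type cells with peptide. Without peptide it had 6.33, 5.87 and 5.8 in PKD2-null cells, against 10.17, 10.34 and 9.99 in wild-type cells. Of 9 T cell markers, 0 were below a log2 signal of 5 on all arrays of a group, and 5 of the 6 stromal and vessel markers (Cdh5, Pdpn, Col1a1, Col1a2, Col3a1) were below 5 on every array. B cell markers were present, and with peptide 3 of 13 (Cd79b, Fcrla, Ighm) were called higher in PKD2-null than in wild-type cells. Their summed linear signal over 13 genes ran from 11540 to 20596 in PKD2-null cells with peptide, 19256 to 32312 in PKD2-null cells without it, 6285 to 7259 in wild-type cells with peptide and 12673 to 13965 in wild-type cells without it. The summed signal of 9 T cell markers ran from 19204 to 26784, 21509 to 29920, 21181 to 22497 and 25397 to 27884 in the same groups. The summed signal of 11 myeloid and dendritic markers, of which Itgam was below 5 on every array, ran from 3644 to 5625, 5618 to 7425, 3890 to 4060 and 5163 to 5796.

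Antigen raised most of these genes. In PKD2-null cells, 29 of the 47 were higher with peptide than without it, 4 were lower and 14 did not pass the threshold. In wild-type cells, 31 were higher, 5 were lower and 11 did not pass. The threshold was an adjusted p below 0.05 in limma's two-sided test, adjusted over all probe sets. Of all genes on the array, 12.5% were called higher and 19% lower in PKD2-null cells, and 15.1% were called higher and 20.4% lower in wild-type cells. Most of the 47 are bright, with 45 at a mean log2 signal of at least 8, and bright genes are called more often. Among all genes that bright, 29.4% were called higher and 34.9% lower in PKD2-null cells, and 32.2% and 38.6% in wild-type cells. Of the 45 bright splicing genes, 29 were higher and 4 lower in PKD2-null cells, and 31 were higher and 4 lower in wild-type cells.

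The median difference of the 47 genes was 0.33 in PKD2-null cells and 0.431 in wild-type cells, on the log2 scale. The same median over all genes was -0.02 and 0.0137, and over all genes with a mean of at least 8 it was -0.066 and -0.0882. In each mouse the median over the 47 lay above 0, at 0.373, 0.276 and 0.352 in the PKD2-null mice, against 0.336, 0.424 and 0.471 in the wild-type mice. The mice of the genotypes overlapped on this measure, and the medians over all genes in single mice lay between -0.056 and 0.037. Values of the 3 arrays with peptide lay wholly above the 3 without it for 34 of the 47 genes in PKD2-null cells and 33 in wild-type cells, where 17.4% and 21.5% of all genes did so. They lay wholly below for 6 genes in each genotype, against 24.1% and 25.2% of all genes. Of the 5035 genes with a mean of at least 8, 1732 lay wholly above in PKD2-null cells and 1858 in wild-type cells. Wholly below lay 2049 and 2264. Of the 45 splicing genes that bright, 34 and 33 lay wholly above, and 6 and 5 wholly below. The B cell marker signal was lower with peptide in both genotypes, and its part in these differences was not tested. A sign of RNA quality was also lower with peptide, without overlap in wild-type cells and with overlap in PKD2-null cells. The log2 signal of the 3' actin control probe set minus that of the 5' one ran from 0.179 to 0.221 in PKD2-null cells with peptide, against 0.214 to 0.355 without it, and from 0.181 to 0.238 in wild-type cells with peptide, against 0.252 to 0.296 without it. Its part was not tested either. Over both genotypes, 29 genes were called higher in both, 4 lower in both, 0 in opposite directions, 11 in neither, 3 in wild-type cells only (Hnrnpa1, Snrpc and Srsf12) and 0 in PKD2-null cells only.

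**Figure D1:**
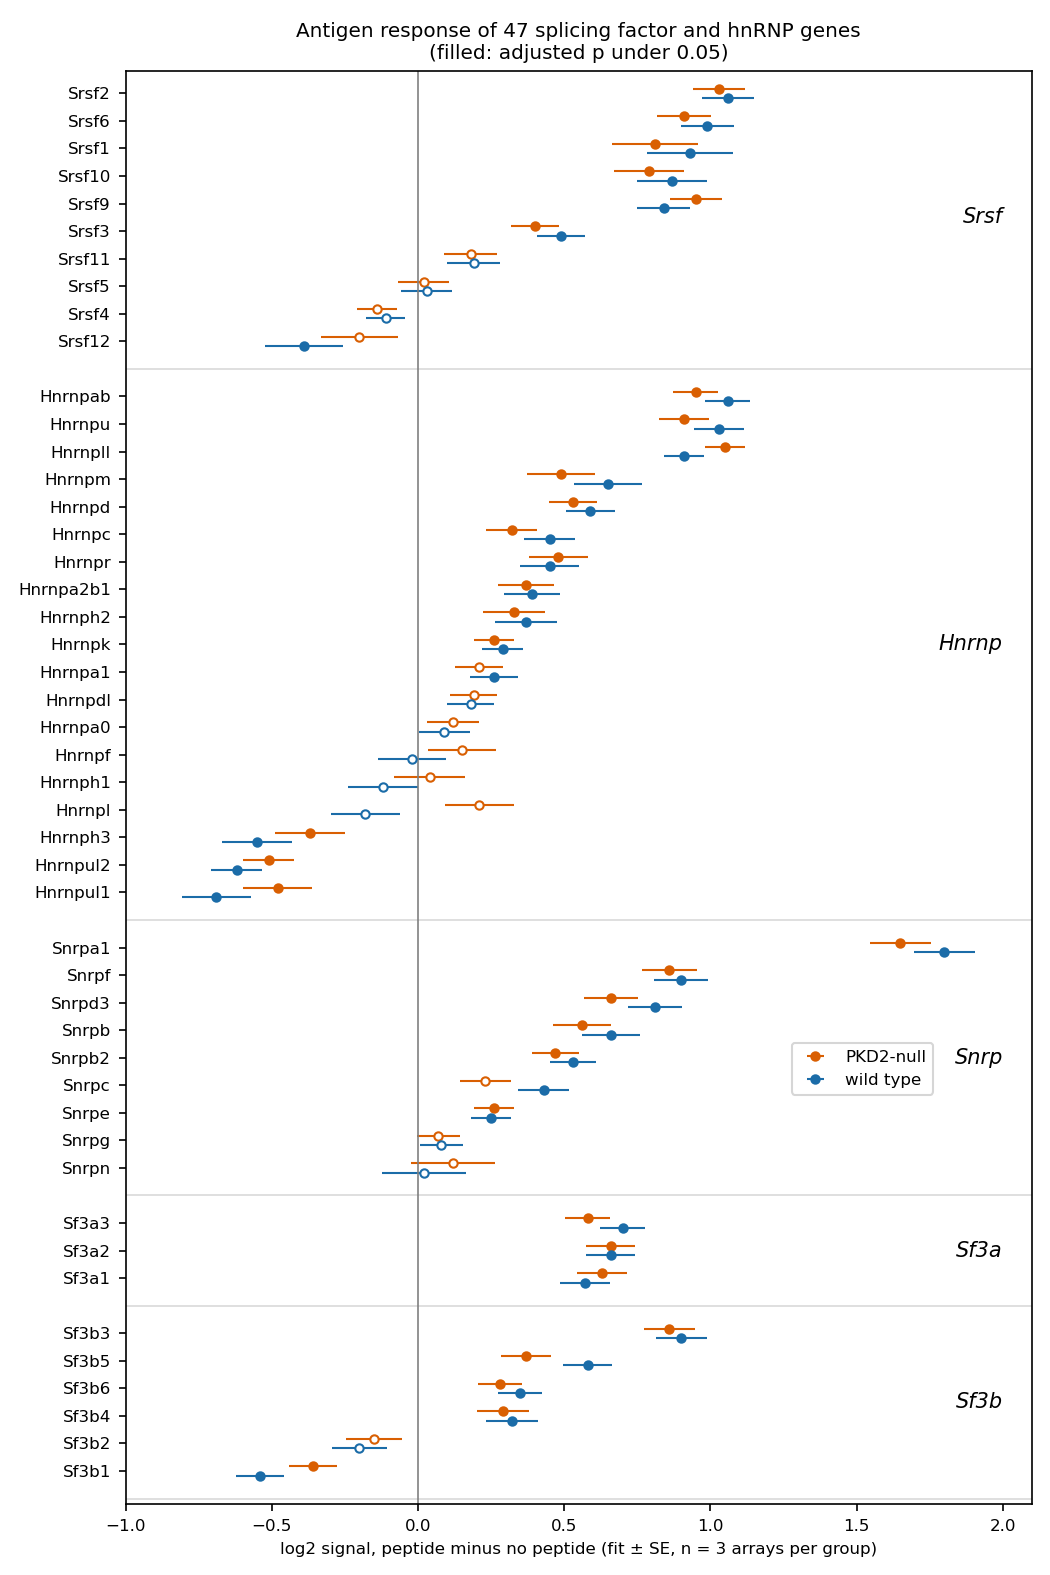
Difference in log2 signal between cells with and without peptide for each of the 47 genes, by family, from the limma fit with its standard error (3 arrays per group). Orange is PKD2-null and blue is wild type, and filled circles have an adjusted p under 0.05. The 3 Sf3a genes and most Srsf and Snrp genes lie right of 0 in both genotypes, Snrpa1 lies farthest right at 1.65 in PKD2-null and 1.80 in wild-type cells, and the lowest values belong to Hnrnpul1, Hnrnpul2, Hnrnph3 and Sf3b1.

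**Figure D2:**
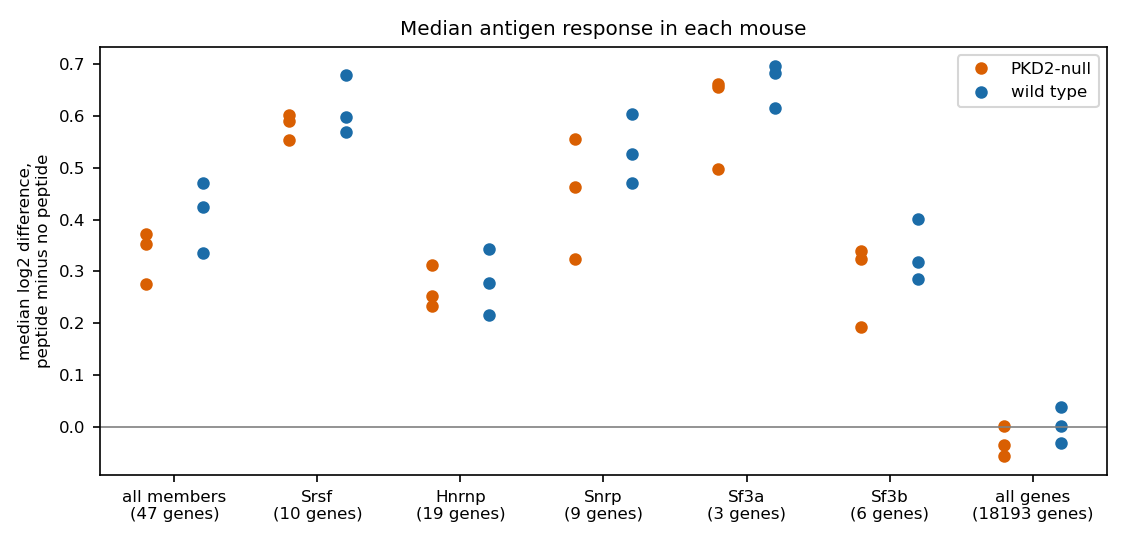
Median difference in log2 signal between cells with and without peptide in each mouse, over each family and over all 18193 genes. Each circle is 1 mouse, orange for PKD2-null and blue for wild type. Every family lies above 0 in all 6 mice, between 0.193 and 0.696, while all genes together lie between -0.056 and 0.037.

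The largest rise among the 47 genes was that of an snRNP protein. Of the 9 Snrp genes, 6 rose with peptide in PKD2-null cells and 7 in wild-type cells, and 0 fell in either. Their median difference was 0.473 in PKD2-null cells and 0.534 in wild-type cells. Snrpa1 encodes the U2 A' protein, which binds the RNA of the U2 particle beside the product of Snrpb2. Snrpa1 had a log2 signal of 11.06, 10.81 and 11.08 in PKD2-null cells with peptide, against 9.22, 9.47 and 9.30 without it. Its wild-type values were 11.02, 11.13 and 11.06 with peptide, against 9.41, 9.29 and 9.12 without it. All 6 arrays with peptide were high and all 6 without it were low, with no overlap. The difference was 1.65 ± 0.105 in PKD2-null cells (3.14-fold, adjusted p = 2.6e-07) and 1.80 ± 0.105 in wild-type cells (3.47-fold, adjusted p = 6.5e-08), where ± is the standard error of the limma fit and n = 3 arrays per group, as it is below. Its partner Snrpb2 rose by 0.47 in PKD2-null cells and by 0.53 in wild-type cells.

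Among the Sm proteins with a gene in the 47, the response was uneven. Snrpd1 and Snrpd2, also of the ring, are not among the 47. Snrpf had 11.09, 11.11 and 11.15 in PKD2-null cells with peptide, against 10.11, 10.30 and 10.35 without it. Wild-type cells had 11.10, 11.22 and 11.08 with peptide, against 10.24, 10.37 and 10.10 without it. The groups with and without peptide did not overlap, and the rise was 0.86 ± 0.0929 in PKD2-null cells (adjusted p = 1.8e-05) and 0.90 ± 0.0929 in wild-type cells (adjusted p = 8e-06). Snrpd3 rose by 0.66 in PKD2-null cells and 0.81 in wild-type cells, and Snrpb by 0.56 and 0.66. Snrpe, also part of the ring, rose by 0.26 ± 0.0674 in PKD2-null cells and 0.25 ± 0.0674 in wild-type cells (adjusted p = 0.013 each). Snrpg, another ring protein, did not pass, at 0.07 in PKD2-null cells (adjusted p = 0.59) and 0.08 in wild-type cells (adjusted p = 0.48). Its 12 values ran only from 12.86 to 13.05 and it is among the brightest of the 47. Snrpn, a relative of Snrpb known mainly from neurons, was dim at a mean of 4.79 and did not pass in either genotype, at 0.12 in PKD2-null cells and 0.02 in wild-type cells.

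Snrpc encodes a protein of the U1 particle, which recognises the start of an intron. It had 10.10, 10.19 and 10.11 in PKD2-null cells with peptide, against 9.84, 10.04 and 9.82 without it. In wild-type cells it had 10.23, 10.41 and 10.36 with peptide, against 9.84, 9.94 and 9.94 without it. Every array with peptide was above every array without it in each genotype, but only the wild-type difference passed the test, at 0.43 ± 0.0868 (adjusted p = 0.0018), against 0.23 ± 0.0868 in PKD2-null cells (adjusted p = 0.076). The difference between the genotypes' responses was -0.20 ± 0.123 and did not pass (adjusted p = 0.78), so the responses are not shown to differ. These values are from the brighter of the 2 probe sets of Snrpc. The other was not called in either genotype, and its sign in PKD2-null cells was opposite.

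The subunits that read the branch point split. All 3 Sf3a genes rose in both genotypes, with medians of 0.625 in PKD2-null cells and 0.663 in wild-type cells. Sf3a3 rose by 0.58 ± 0.0781 in PKD2-null cells (adjusted p = 1e-04) and by 0.70 ± 0.0781 in wild-type cells (adjusted p = 1.6e-05), Sf3a2 by 0.66 in each, and Sf3a1 by 0.63 in PKD2-null cells and 0.57 in wild-type cells. Of the 6 Sf3b genes, 4 rose and 1 fell in each genotype. Sf3b3, a scaffold subunit, had 11.02, 10.79 and 10.91 in PKD2-null cells with peptide, against 10.01, 10.06 and 10.07 without it. Its wild-type values were 10.93, 10.70 and 10.82 with peptide, against 9.86, 9.96 and 9.91 without it. The arrays with peptide were all higher, by 0.86 ± 0.0868 in PKD2-null cells (adjusted p = 1e-05) and 0.90 ± 0.0868 in wild-type cells (adjusted p = 4.2e-06). Sf3b5, a small subunit, rose by 0.37 ± 0.085 in PKD2-null cells and 0.58 ± 0.085 in wild-type cells. Sf3b6, which contacts the branch point, rose by 0.28 in PKD2-null cells and 0.35 in wild-type cells, and Sf3b4 by 0.29 and 0.32. Without PKD2-null mouse 3 the adjusted p in PKD2-null cells was 0.063 for Sf3b5, 0.11 for Sf3b6 and 0.18 for Sf3b4.

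Sf3b1 encodes the largest subunit, which clamps the branch point, and it went the other way. It had 12.17, 12.06 and 12.14 in PKD2-null cells with peptide, against 12.56, 12.41 and 12.49 without it. Wild-type cells had 12.01, 11.79 and 11.93 with peptide, against 12.49, 12.44 and 12.41 without it. All arrays with peptide were lower than all arrays without it, across both genotypes. The gene fell by 0.36 ± 0.082 in PKD2-null cells (adjusted p = 0.0049) and by 0.54 ± 0.082 in wild-type cells (adjusted p = 2e-04). Its 3 other probe sets also had negative differences in both genotypes, at -0.37, -0.11 and -0.09 in PKD2-null cells and -0.79, -0.47 and -0.40 in wild-type cells. Of these, 1 passed in PKD2-null cells (adjusted p = 0.035) and 2 passed in wild-type cells (adjusted p = 0.00018 and 0.023). Sf3b2 did not pass in either genotype, at -0.15 in PKD2-null cells (adjusted p = 0.35) and -0.20 in wild-type cells (adjusted p = 0.17).

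The promoters of the 47 genes, whether or not they changed, were searched for short sequence motifs where a window was available. Of the 47 genes, 42 have a window of 300 bases in RefSeq's GRCm38.p6 annotation, from 250 bases before the transcription start to 50 after it. Both strands were searched for 6 motifs: the E-box CACGTG, the ETS motif CCGGAAG, the YY1 motif AAGATGGC, the palindromic NRF1 motif, the CCAAT box CCAAT and the GC box GGGGCGGGG. A window that holds several motifs was counted for each. The ETS letters stood in 15 of the 42 windows (35.7%), against 9.93% of the windows of 27025 genes. The GC box stood in 12 windows (28.6%, against 12.9% of all) and the CCAAT box in 22 (52.4%, against 41.1%). The E-box stood in 4 (9.52%, against 8.09%), the YY1 motif in 2 (4.76%, against 3.19%) and the NRF1 motif in 1 (2.38%, against 1.07%). The base composition of the windows was not matched, and a match is a description of letters.

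The ETS letters stood in 6 of the 7 Sf3a and Sf3b windows. They stood in 9 of the 27 windows of genes that rose in wild-type cells and in 0 of the 4 of genes that fell there. The other windows with the letters belong to genes among the 11 not called in wild-type cells, all of which have a window: Hnrnpf, Sf3b2, Snrpg, Srsf11, Srsf4 and Srsf5. These letters had the largest ratio of shares among the motifs, so windows of the branch point complex are shown. They are 3 that rose and hold the letters and Sf3b1, which fell and holds none. These windows were picked by direction and letters, so they do not show that direction and letters go together. Sf3b2 holds the letters and did not pass in either genotype, at -0.15 in PKD2-null cells and -0.20 in wild-type cells. Capitals mark CCGGAAG or its reverse complement CTTCCGG, and each window is written 5′ to 3′ along the gene's own strand. The Sf3a3 window is chr4:124714611-124714910 on the plus strand, with the match starting 90 bases before the transcription start. The Sf3b3 window is chr8:110846754-110847053 on the minus strand, with the match 229 bases before the start. The Sf3b6 window is chr12:4817358-4817657 on the plus strand, with matches 85 and 70 bases before the start. The Sf3b1 window is chr1:55027429-55027728 on the minus strand.
Sf3a3: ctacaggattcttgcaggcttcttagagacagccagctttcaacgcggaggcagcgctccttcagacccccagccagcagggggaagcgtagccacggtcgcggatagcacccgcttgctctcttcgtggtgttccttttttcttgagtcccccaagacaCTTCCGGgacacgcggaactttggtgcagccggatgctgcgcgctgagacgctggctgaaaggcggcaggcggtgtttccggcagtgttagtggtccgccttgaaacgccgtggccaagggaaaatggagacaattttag
Sf3b3: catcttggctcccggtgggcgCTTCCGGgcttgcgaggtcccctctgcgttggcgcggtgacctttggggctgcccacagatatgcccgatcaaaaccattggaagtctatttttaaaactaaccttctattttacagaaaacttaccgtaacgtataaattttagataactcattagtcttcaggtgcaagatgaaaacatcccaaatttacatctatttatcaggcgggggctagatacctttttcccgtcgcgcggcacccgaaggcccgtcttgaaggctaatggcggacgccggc
Sf3b6: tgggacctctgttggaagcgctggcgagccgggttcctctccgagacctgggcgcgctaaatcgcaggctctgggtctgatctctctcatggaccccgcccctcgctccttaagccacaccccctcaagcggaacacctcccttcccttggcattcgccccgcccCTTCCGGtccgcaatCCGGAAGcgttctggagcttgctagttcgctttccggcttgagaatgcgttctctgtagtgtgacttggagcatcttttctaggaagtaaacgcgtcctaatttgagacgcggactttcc
Sf3b1: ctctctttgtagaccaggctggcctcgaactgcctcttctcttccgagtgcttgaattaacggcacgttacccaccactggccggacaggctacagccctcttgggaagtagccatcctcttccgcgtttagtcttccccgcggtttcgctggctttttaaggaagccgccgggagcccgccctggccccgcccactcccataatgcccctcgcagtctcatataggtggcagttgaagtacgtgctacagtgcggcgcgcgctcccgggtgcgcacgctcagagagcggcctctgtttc

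**Figure D3:**
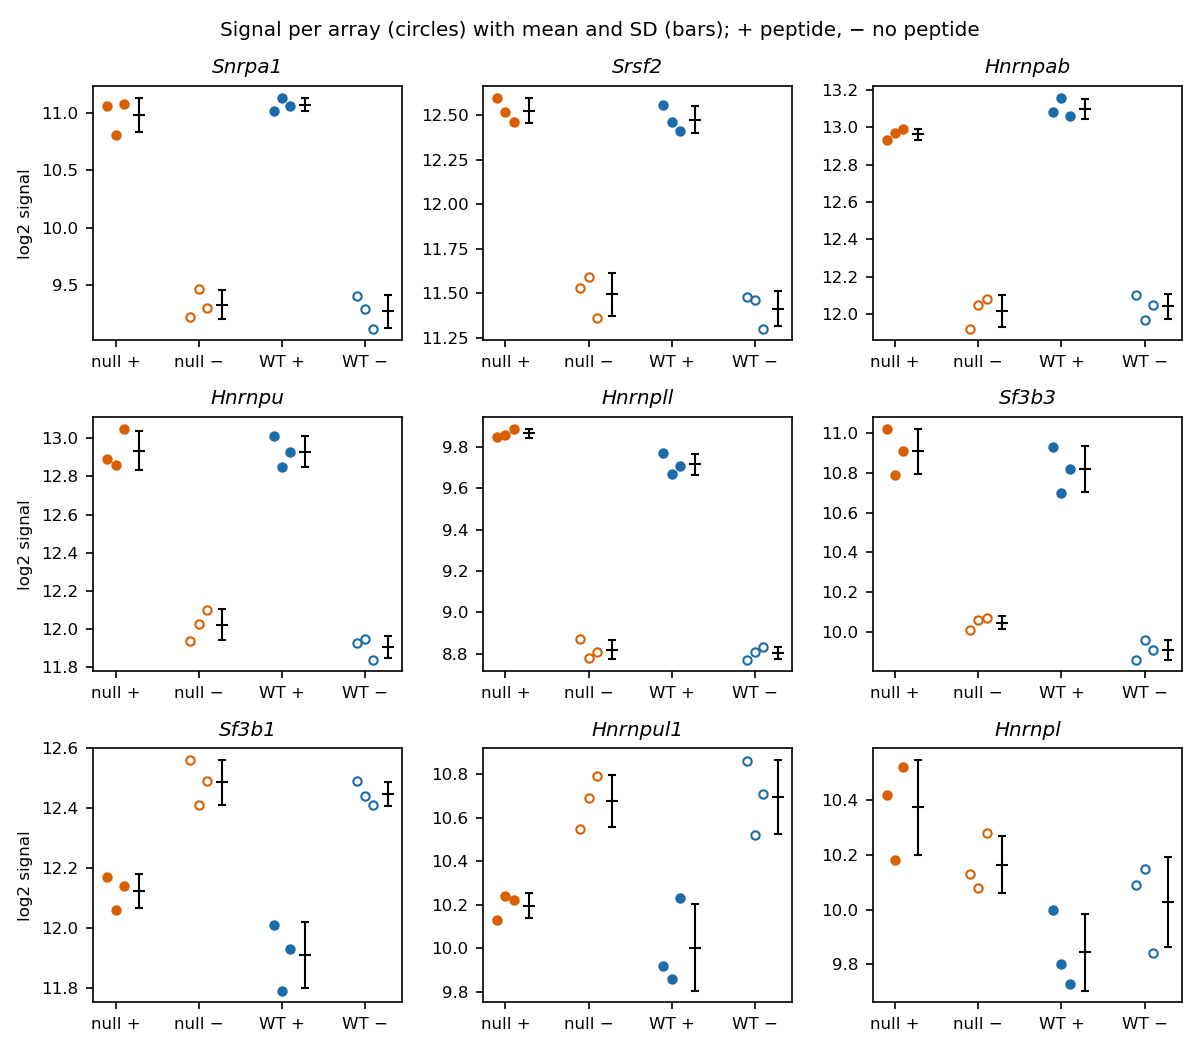
Log2 signal on each array for 9 of the genes, with the mean and SD of each group as bars (3 arrays per group). Columns run from PKD2-null with peptide to wild type without it, and the vertical axis of each panel covers only its own values. Snrpa1, Srsf2, Hnrnpab, Hnrnpu, Hnrnpll and Sf3b3 are high with peptide and low without it, Sf3b1 and Hnrnpul1 are the reverse, and Hnrnpl is highest in PKD2-null cells with peptide.

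Among the SR proteins, 6 of 10 rose with peptide in each genotype, with medians over the family of 0.596 in PKD2-null cells and 0.668 in wild-type cells. In wild-type cells 1 fell, and in PKD2-null cells 0 did. Srsf2, which binds exons and is also linked to transcription elongation, had 12.60, 12.52 and 12.46 in PKD2-null cells with peptide, against 11.53, 11.59 and 11.36 without it. In wild-type cells it had 12.56, 12.46 and 12.41 with peptide, against 11.48, 11.46 and 11.30 without it. The arrays with peptide were all higher, by 1.03 ± 0.0887 in PKD2-null cells (2.05-fold, adjusted p = 2.7e-06) and 1.06 ± 0.0887 in wild-type cells (2.09-fold, adjusted p = 1.3e-06). Srsf6 rose by 0.91 ± 0.0912 in PKD2-null cells (adjusted p = 9.4e-06) and 0.99 ± 0.0912 in wild-type cells (adjusted p = 3e-06). Srsf1, the founding SR protein and a known regulator of splice site choice in T cells, had 12.19, 12.07 and 12.26 in PKD2-null cells with peptide, against 11.44, 11.25 and 11.40 without it. In wild-type cells Srsf1 had 12.22, 12.32 and 12.14 with peptide, against 11.41, 11.60 and 10.89 without it. Wild-type mouse 3 without peptide was the lowest of these arrays, and the groups still did not overlap. The rise was 0.81 ± 0.147 in PKD2-null cells (adjusted p = 0.0011) and 0.93 ± 0.147 in wild-type cells (adjusted p = 0.00029).

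Srsf10, whose product is known as a splicing repressor when dephosphorylated, rose by 0.79 in PKD2-null cells and 0.87 in wild-type cells, and Srsf9 rose by 0.95 and 0.84. Srsf5 did not pass, with differences of 0.02 ± 0.0877 in PKD2-null cells and 0.03 ± 0.0877 in wild-type cells (adjusted p = 0.92 and 0.84). Srsf4, at -0.14 in PKD2-null cells and -0.11 in wild-type cells, and Srsf11, at 0.18 and 0.19, also did not pass. Srsf12 was the dimmest of the 47, with a mean of 3.28, and only its wild-type difference passed. It had 3.35, 3.15 and 3.18 in PKD2-null cells with peptide, against 3.52, 3.11 and 3.65 without it, and 2.88, 3.06 and 3.18 in wild-type cells with peptide, against 3.48, 3.46 and 3.34 without it. The groups with and without peptide overlapped in PKD2-null cells and did not in wild-type cells. These values lie near the lowest on any array, 2.427. It fell by 0.39 ± 0.132 in wild-type cells (adjusted p = 0.044), which was 0.29, 0.18 and 0.052 without wild-type mouse 1, 2 or 3. In PKD2-null cells it was at -0.20 ± 0.132 (adjusted p = 0.34).

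The hnRNP genes went both ways. Of 19, 10 rose and 3 fell in PKD2-null cells and 11 rose and 3 fell in wild-type cells, with medians of 0.265 and 0.286. Hnrnpab, an RNA and DNA binding hnRNP, had 12.93, 12.97 and 12.99 in PKD2-null cells with peptide, against 11.92, 12.05 and 12.08 without it. Its wild-type values were 13.08, 13.16 and 13.06 with peptide, against 12.10, 11.97 and 12.05 without it. The arrays with peptide were all higher, by 0.95 ± 0.0767 in PKD2-null cells (1.93-fold, adjusted p = 1.8e-06) and 1.06 ± 0.0767 in wild-type cells (2.09-fold, adjusted p = 3.9e-07). Hnrnpu, also known as scaffold attachment factor A, rose by 0.91 ± 0.0844 in PKD2-null cells (adjusted p = 5.2e-06) and 1.03 ± 0.0844 in wild-type cells (adjusted p = 1.2e-06).

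Hnrnpll encodes the hnRNP best known in T cells, where it represses the variable exons of CD45 during activation. It had 9.85, 9.86 and 9.89 in PKD2-null cells with peptide, against 8.87, 8.78 and 8.81 without it. Wild-type cells had 9.77, 9.67 and 9.71 with peptide, against 8.77, 8.81 and 8.83 without it. The groups with and without peptide were far apart, and the rise was 1.05 ± 0.0695 in PKD2-null cells (2.06-fold, adjusted p = 3.6e-07) and 0.91 ± 0.0695 in wild-type cells (1.88-fold, adjusted p = 6.2e-07). Hnrnpm rose by 0.49 in PKD2-null cells and 0.65 in wild-type cells, and Hnrnpd, which binds AU-rich elements and is linked to mRNA decay, rose by 0.53 and 0.59. Smaller rises in both genotypes were those of Hnrnpr, Hnrnpc, Hnrnpa2b1, Hnrnph2 and Hnrnpk, between 0.26 and 0.48 in PKD2-null cells and between 0.29 and 0.45 in wild-type cells. Hnrnpa1, a well studied antagonist of Srsf1, passed only in wild-type cells, at 0.26 ± 0.0824 (adjusted p = 0.03), and was at 0.21 ± 0.0824 in PKD2-null cells (adjusted p = 0.089). The difference between the genotypes' responses was -0.05 ± 0.117 (adjusted p = 0.96). The wild-type call was lost whenever 1 of the 3 wild-type mice was left out, with adjusted p of 0.098, 0.098 and 0.18.

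The 3 hnRNP genes that fell did so in both genotypes. Hnrnpul1, an hnRNP U-like protein also linked to the response to DNA damage, had 10.13, 10.24 and 10.22 in PKD2-null cells with peptide, against 10.55, 10.69 and 10.79 without it. In wild-type cells it had 9.92, 9.86 and 10.23 with peptide, against 10.86, 10.52 and 10.71 without it. All arrays with peptide were lower, with differences of -0.48 ± 0.118 in PKD2-null cells (adjusted p = 0.0085) and -0.69 ± 0.118 in wild-type cells (adjusted p = 5e-04). Its relative Hnrnpul2 fell by 0.51 ± 0.0869 in PKD2-null cells (adjusted p = 0.00069) and by 0.62 ± 0.0869 in wild-type cells (adjusted p = 1e-04). Hnrnph3 fell by 0.37 ± 0.119 in PKD2-null cells (adjusted p = 0.038) and by 0.55 ± 0.119 in wild-type cells (adjusted p = 0.0032). Hnrnpa0, Hnrnpf and Hnrnph1 did not pass in either genotype, at 0.12, 0.15 and 0.04 in PKD2-null cells and 0.09, -0.02 and -0.12 in wild-type cells. Without PKD2-null mouse 3, Hnrnph3 and Hnrnpul1 lost the call in PKD2-null cells (adjusted p = 0.19 and 0.08), which left 2 of the 4 genes called lower.

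For 35 of the 47 genes several probe sets were available. In 28 of these all probe sets had the same sign in PKD2-null cells, and in 23 in wild-type cells. Srsf3 and Hnrnpdl were the 2 genes with probe sets called in opposite directions in both genotypes. Srsf3 encodes the smallest SR protein, which also acts in mRNA export. Its brightest probe set rose by 0.40 ± 0.0816 in PKD2-null cells (adjusted p = 0.0025) and 0.49 ± 0.0816 in wild-type cells (adjusted p = 0.00042), and 4 others rose in both. The dimmest had 7.11, 6.96 and 6.94 in PKD2-null cells with peptide, against 7.75, 7.57 and 7.45 without it. Its wild-type values were 7.04, 6.76 and 6.97 with peptide, against 7.82, 7.52 and 7.71 without it. It was lower with peptide in every mouse, falling by 0.58 ± 0.112 in PKD2-null cells (adjusted p = 0.0017) and by 0.76 ± 0.112 in wild-type cells (adjusted p = 0.00015).

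Hnrnpdl, a relative of Hnrnpd, had 7 probe sets. The brightest did not pass, at 0.19 in PKD2-null cells and 0.18 in wild-type cells (adjusted p = 0.11 and 0.12). By mean signal, the second brightest rose by 0.39 in PKD2-null cells and 0.63 in wild-type cells, while the sixth fell by 0.37 in PKD2-null cells (adjusted p = 0.017) and by 0.41 in wild-type cells (adjusted p = 0.0087). The fifth was called lower only in wild-type cells, at -0.58 (adjusted p = 0.023), against -0.22 in PKD2-null cells (adjusted p = 0.46). For these genes a direction holds for a probe set and not for the gene. Which part or form of the transcript each probe set binds was not analysed here. For 12 of the 47 genes, Snrpa1, Snrpb, Hnrnpab and Hnrnpll among them, the brightest probe set had a name ending in x_at or s_at, which can bind more than 1 transcript. With such probe sets left out, Sf3a2 in wild-type cells was at 0.42 (adjusted p = 0.051) and Hnrnpa1 at 0.34 (adjusted p = 0.096).

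**Figure D4:**
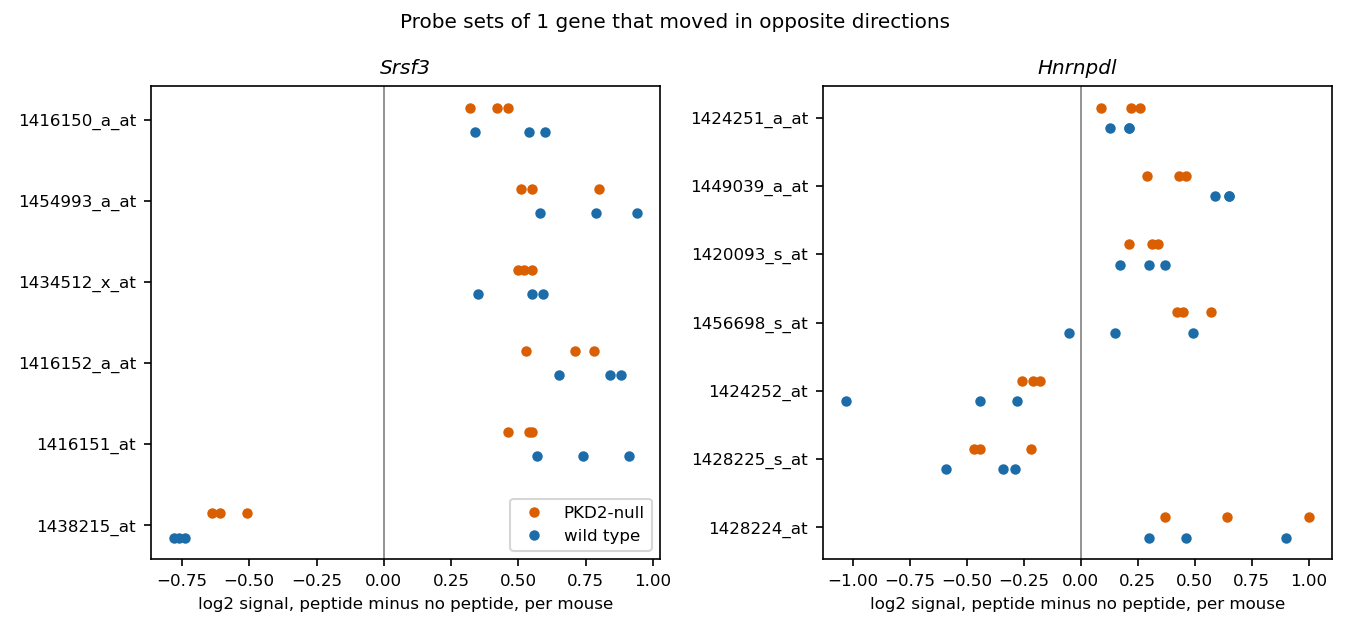
Difference in log2 signal between cells with and without peptide in each mouse for every probe set of Srsf3 (left) and Hnrnpdl (right), brightest probe set at the top. Each circle is 1 mouse, orange for PKD2-null and blue for wild type. For Srsf3, 5 probe sets lie right of 0 and the dimmest lies left of 0 in all 6 mice, and for Hnrnpdl the fifth and sixth lie left of 0 while the second lies right.

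Between genotypes, 0 of the 47 genes passed the test. Without peptide, 0 were called higher and 0 lower in PKD2-null than in wild-type cells, where 0.011% of all genes were called higher and 0.033% lower. Of the 47, 0 had an unadjusted p below 0.05 there, against 10.6% of all genes and 615 of the 5035 genes with a mean of at least 8. The smallest adjusted p was 0.7. The largest differences by p were 0.13 ± 0.0854 for Sf3a1, 0.14 ± 0.0868 for Sf3b3 and 0.13 ± 0.085 for Sf3b5, each with its 3 PKD2-null arrays above the 3 wild-type arrays. Of the 47 genes, 5 lay wholly higher in this way and 0 wholly lower, against 9.59% and 6.78% of all genes. Bright genes were tilted the same way, with 783 of the 5035 wholly higher and 198 wholly lower. With peptide, 0 were again called in either direction, against 1.09% of all genes higher and 0.544% lower. An unadjusted p below 0.05 was found for 6, against 17.6% of all genes and 1328 of the 5035 bright ones. For the difference between the genotypes' responses, 0 of the 47 were called, as were 0% of all genes in the positive and 0.0055% in the negative direction. There, 1 of the 47 had an unadjusted p below 0.05, against 7.71% of all genes and 640 of the 5035 bright ones. Of the 29 genes called higher in both genotypes, 24 had the smaller fitted rise in PKD2-null cells. The same count among all genes called higher in both was not made, so 24 of 29 is not shown to be particular to these genes. The difference between the genotypes' responses ran from -0.215 to 0.391 over the 47 genes, with a median of -0.0306, beside a median of -0.024 over all genes. Over the 45 bright members the median was -0.0344, and 15 of them lay above 0. Over the 5035 genes with a mean of at least 8 it was 0.00658, and 2599 of them lay above 0. All 13 B cell markers were higher in PKD2-null than in wild-type cells without peptide on every array, by a median of 0.65, and their part in these genotype values was not tested.

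Hnrnpl came closest to a genotype difference. It encodes the hnRNP that represses CD45 exons in resting T cells and is a relative of Hnrnpll. It had 10.42, 10.18 and 10.52 in PKD2-null cells with peptide, against 10.00, 9.80 and 9.73 in wild-type cells with peptide. Without peptide it had 10.13, 10.08 and 10.28 in PKD2-null cells, against 10.09, 10.15 and 9.84 in wild-type cells. With peptide the genotypes did not overlap, and without it they did. Such separation with peptide was found for 8 of the 47 genes in the higher and 6 in the lower direction, against 10.9% and 12.8% of all genes. All of these are among the 45 bright members. Of the 5035 genes with a mean of at least 8, 1122 separated in the higher and 674 in the lower direction. The difference with peptide was 0.53 ± 0.117 (1.44-fold, adjusted p = 0.054), and it was called once the arrays of a mouse were treated as a block (adjusted p = 0.045). Over all alternatives the adjusted p ran from 0.027 to 0.26. The second probe set of the gene, dim at a mean of 3.39, had a difference of -0.05 with peptide (adjusted p = 0.84). The response to peptide did not pass in either genotype, at 0.21 ± 0.117 in PKD2-null cells (adjusted p = 0.26) and -0.18 ± 0.117 in wild-type cells (adjusted p = 0.31), and nor did the difference between these responses, 0.39 ± 0.166 (adjusted p = 0.67). After Hnrnpl, the smallest p with peptide were those of Sf3b1, 0.21 ± 0.082 higher in PKD2-null cells (adjusted p = 0.24), and Snrpc, at -0.20 ± 0.0868 (adjusted p = 0.29).

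Other genes of the pathway were taken from 4 lists. The first held the 22 kinases of SR proteins and SR-like factors, all measured. With peptide 3 rose and 6 fell in PKD2-null cells, and 3 rose and 12 fell in wild-type cells, with medians of -0.111 and -0.352. Among all genes with a mean of at least 8, 29.4% rose and 34.9% fell in PKD2-null cells, with a median of -0.066, and 32.2% rose and 38.6% fell in wild-type cells, with a median of -0.0882. Clk1, a kinase that releases SR proteins from nuclear speckles, was fitted at -1.04 ± 0.0873 in PKD2-null cells (adjusted p = 2.3e-06) and -1.30 ± 0.0873 in wild-type cells (adjusted p = 2.1e-07), and was named after its values were seen. Rbm39, an SR-like cofactor of the U2 auxiliary factor, fell by 0.64 in PKD2-null cells and by 1.35 in wild-type cells, by its brightest probe set. Of its 12 probe sets, 1 was called lower in PKD2-null cells and 4 in wild-type cells. Tra2a, an SR-like activator of exons, rose by 1.11 in PKD2-null cells and 1.38 in wild-type cells, though only 2 and 1 of its 6 probe sets were called.

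Srpk2 encodes a kinase of SR proteins and Srpk3 its relative best known from muscle. Srpk2 fell by 1.63 ± 0.22 in wild-type cells (adjusted p = 7.8e-05) and was at -0.11 ± 0.22 in PKD2-null cells (adjusted p = 0.82). With peptide it averaged 9.85 in PKD2-null cells and 8.75 in wild-type cells, a difference of 1.11 ± 0.22 (2.16-fold, adjusted p = 0.037), and 2 of its 6 probe sets were called. Srpk3 was also higher in PKD2-null cells with peptide, by 1.16 ± 0.231 (adjusted p = 0.037), with 1 of 4 probe sets called. B cell markers differed in the same comparison, Fcrla by 1.25 and Cd79b by 1.19, and their part in the Srpk2 and Srpk3 values was not tested. Neither passed for the difference between the genotypes' responses, which was 1.52 ± 0.312 for Srpk2 (adjusted p = 0.38) and 0.56 ± 0.327 for Srpk3 (adjusted p = 0.77).

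The second list held 24 genes of Sm protein methylation and snRNP assembly, of which 21 were measured. In each genotype 14 rose and 3 fell with peptide, and the medians were 0.531 in PKD2-null cells and 0.541 in wild-type cells. Of all genes, 12.5% rose and 19% fell in PKD2-null cells, and 15.1% rose and 20.4% fell in wild-type cells. Of those with a mean of at least 8, it was 29.4% and 34.9%, and 32.2% and 38.6%. Some genes of this list, such as Smn1 and Lsm2, are dimmer than that. Prmt5, the methyltransferase that modifies Sm proteins, rose by 1.28 ± 0.0892 in PKD2-null cells (adjusted p = 5.2e-07) and 1.35 ± 0.0892 in wild-type cells (adjusted p = 1.9e-07). Its partner Wdr77 rose by 1.63 in PKD2-null cells and 1.98 in wild-type cells, and all 3 of its probe sets were called. Gemin5, which recognises the small nuclear RNAs for assembly, rose by 1.34 and 1.92 in the same order, and Lsm2, of the ring around U6 RNA, by 1.07 and 1.50.

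The third list held 46 other subunits of the spliceosome, of which 43 were measured. With peptide 22 rose and 4 fell in PKD2-null cells, and 23 rose and 7 fell in wild-type cells. Of all genes with a mean of at least 8, 29.4% rose and 34.9% fell in PKD2-null cells, and 32.2% and 38.6% in wild-type cells. Prpf31, of the U4/U6 particle, rose by 0.70 in PKD2-null cells and 1.31 in wild-type cells. Prpf19, a ubiquitin ligase of the spliceosome, rose by 0.95 and 1.12, Ppie by 0.93 and 1.14, and Rbm17 by 0.73 and 1.01. The fourth list held 32 other regulators of splice choice, of which 29 were measured. With peptide 10 rose and 8 fell in PKD2-null cells, and 9 rose and 10 fell in wild-type cells, shares near those of all genes with a mean of at least 8. Fubp1, a binder of single-stranded nucleic acid, rose by 1.96 in PKD2-null cells and 2.38 in wild-type cells, and Syncrip, also known as hnRNP Q, rose by 1.20 and 1.47. Cirbp, the cold-inducible RNA-binding protein, fell by 0.95 in PKD2-null cells and by 1.28 in wild-type cells. Celf2, a regulator of exon choice in T cells, fell by 0.68 in PKD2-null cells and by 1.14 in wild-type cells. For the last 3 lists, 0 genes were called between the genotypes by their brightest probe set, with or without peptide. With peptide, 1.09% of all genes were called higher and 0.544% lower, and without it 0.011% and 0.033%. Of the 5 probe sets of Rbm5, in the fourth list, 1 was called higher in PKD2-null cells with peptide.

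**Figure D5:**
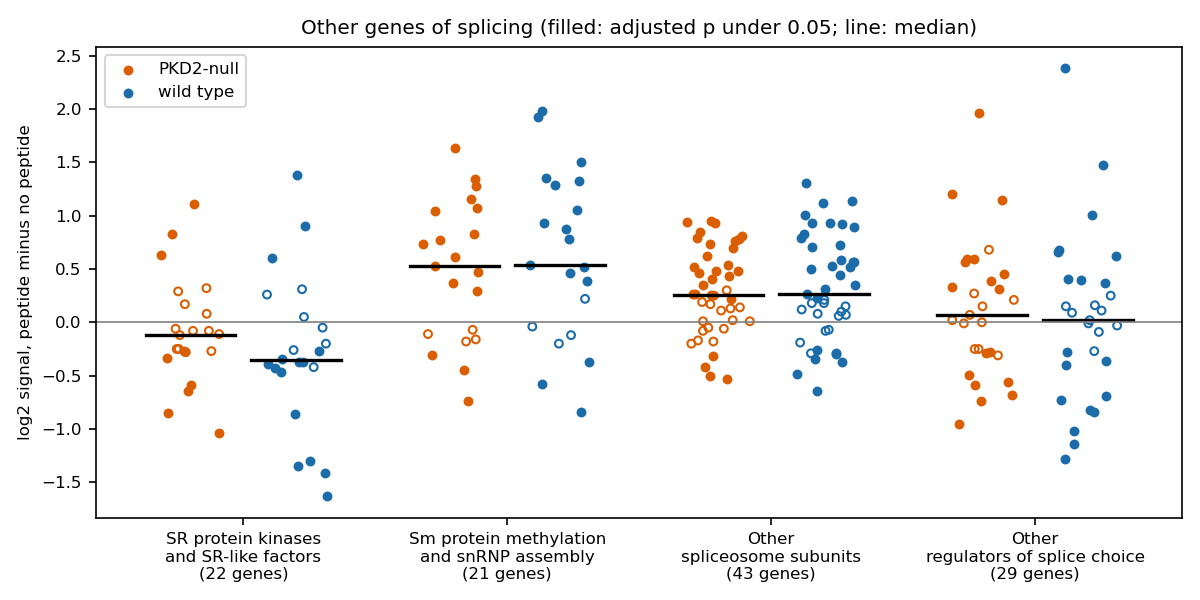
Difference in log2 signal between cells with and without peptide for the measured genes of the 4 other lists, orange for PKD2-null and blue for wild type. Each circle is 1 gene, filled where the adjusted p is under 0.05, and the line is the list's median. The assembly list has the highest medians, 0.531 and 0.541, and the list of SR protein kinases and SR-like factors the lowest, -0.111 and -0.352.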

How the data were processed

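RNA of lymph node cells was measured on 12 Affymetrix arrays. The authors deposited log2 signals in 1 table of 45101 probe sets, made with Affymetrix Expression Console 1.1 per the submitters' processing notes. How they were normalized is not given in the sources used. Array medians of 4.67 to 4.72 were close, so the deposited log2 values were used unchanged, and control probe sets (64) were left out. Array number limits the precision. Gene symbols came from the platform annotation, and promoter sequences from RefSeq.

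A limma model (version 3.58.1, R 4.3.3) with 1 mean per group was fitted to all 12 arrays, and 5 comparisons were tested, two-sided. The p-values were adjusted by Benjamini and Hochberg over 45037 probe sets, and a gene was called at an adjusted p under 0.05. The fit was also run on simulated arrays, drawn independently of each other with no pairing by mouse, and no result here rests on that run. The numbers in the labels mark the same mouse with and without peptide. The deviations of the arrays of a mouse correlated at 0.116 to 0.577, and 6 of 6 arrays without peptide were closest to their own mouse, so the mouse was used as a block in an alternative. Other alternatives left out each mouse, used quantile normalization, an intensity trend, a mean of at least 5, the mean over a gene's probe sets, or no probe sets ending in x_at or s_at.

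Named genes are up to 4 called higher and 4 called lower in wild type by family, those called in 1 genotype, those with the smallest p between genotypes, the brightest and dimmest, those with a known role in T cells or disease, those whose probe sets disagree, and 4 from each further list, and other members, such as Srsf9 and Hnrnpd, were named after their values were seen. The members and lists were chosen with earlier results of these data known.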

Additional observations from a re-analysis of the deposited data

Results flagged for a closer look

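Of the 47 genes, Hnrnpl was the 1 for which every mouse of a genotype moved against every mouse of the other. With peptide its log2 signal differed by 0.29, 0.10 and 0.23 in the 3 PKD2-null mice, against -0.09, -0.35 and -0.11 in the 3 wild-type mice. The difference between these responses was 0.39 ± 0.166 (SE of the limma fit), with an unadjusted p of 0.036 and an adjusted p of 0.67, so it did not pass the test. The share of all genes whose mice split in this way was not counted, so 1 of 47 is not shown to be unusual.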

How the results depend on the processing

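The alternatives were tried on 60 values of named genes, not on every value given here. Of the 719 recomputed values, 685 were counted as unchanged, 30 lost the call, 4 gained it and 0 were counted as reversed. Differences near 0 can still change sign when a mouse is left out. Snrpn in wild-type cells, fitted at 0.02, had -0.11, 0.41 and -0.23 in the 3 mice. With each mouse left out in turn, the number of genes called higher with peptide ran from 20 to 29 in PKD2-null cells, against 26 to 31 in wild-type cells. The number called lower ran from 2 to 4 in PKD2-null cells, the 2 arising without PKD2-null mouse 3, and from 4 to 5 in wild-type cells. Between genotypes with peptide it ran from 0 to 1 higher. With the mouse as a replicate block, 1 gene was called higher in PKD2-null cells with peptide in place of 0, Hnrnpl (adjusted p = 0.045), and the block changed no other count of called genes. Hnrnpl was also the 1 gene called without PKD2-null mouse 2 (adjusted p = 0.027), with an intensity trend (0.033) and among probe sets with a mean of at least 5 (0.038), and its difference ran from 0.24 to 0.62. Quantile normalization moved the median difference to 0.256 in PKD2-null cells and 0.347 in wild-type cells, and averaging the probe sets of each gene moved the wild-type median to 0.31. The cause was not tested. Signal limits 2 genes: Srsf12 and Snrpn, with means of 3.28 and 4.79.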
